A study of Drosophila melanogaster with 27 samples.

Results

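The comparison described here set Upf1-Nos embryos against Upf1-NosL7 embryos, 2 groups of hand-sorted Drosophila melanogaster embryos at nuclear cycle 9 whose mothers supplied fusion proteins that differ in their C-terminal tail. Its members are 6 of the 27 libraries of the series, chosen by genotype label: 3 libraries of Upf1-Nos and 3 of Upf1-NosL7. In both groups the mothers carried a UAS transgene with the nos 3′ UTR, driven in the female germline by a maternal alpha-Tubulin GAL4-VP16 driver. The transgenes were thus expressed from oogenesis onward. The study found tagged Upf1-Nos protein to be overexpressed relative to endogenous Nos, and it reports no such measure for Upf1-NosL7 protein. Upf1-Nos joins the RNA helicase Upf1 to an intact Nos, and Upf1-NosL7 is the same fusion without 7 residues of the Nos tail. The study picked transgenic lines with like levels of fusion mRNA. Many Upf1-Nos eggs had abnormal nuclei or were unfertilized and essentially none hatched, which limits how closely the sorted embryos of the groups can be matched in state. The sorted set also held w1118 embryos (w) and embryos expressing Upf1 or Nos alone, 3 libraries each, which entered the same fit. Another 12 libraries came from unsorted collections of nos- (nosBN/Df) and w embryos aged 0 to 1 h or 2 to 3 h, and those of the later stage are used below as a separate readout. Poly(A) RNA was sequenced from all libraries, and nothing in the sources states whether replicates came from separate cages, so that p-values measure the spread between these samples.

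Nanos is an RNA-binding protein of the posterior pole that represses maternal mRNAs, best known for hunchback (hb), whose translation it blocks so that the abdomen can form. It binds RNA with little sequence preference on its own and acts with Pumilio (Pum), which binds Nanos response elements in the 3′ UTR. The tail removed in L7 is needed for the joint complex of Nos, Pum and RNA. Upf1 is the central helicase of nonsense-mediated decay, and tethering it to an mRNA can bring about the loss of that mRNA, so the amount of an mRNA serves as the readout. The question asked of these 6 libraries was what the intact Nos tail adds to the fusion.

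The 3 Upf1-Nos libraries held 14651409, 14022879 and 14405569 counts, and the 3 Upf1-NosL7 libraries 16107781, 15300363 and 16829656, within the 14022879 to 22002028 of all sorted libraries. Levels are given as scaled counts (CPM, relative to the scaled library total), and fold changes as log2 of Upf1-Nos over Upf1-NosL7 with their standard error (SE). Upf1-Nos libraries were scaled by the mean ratio of 20 abundant mRNAs to w, which gave factors of 1.26, 1.47 and 1.33, against TMM factors (edgeR's trimmed mean) of 0.934, 0.869 and 0.924. That scaling takes those 20 mRNAs as unaltered, and without it the median log2 fold change of all genes moved to 0.06. Distances on edgeR's log2 scale were taken over the genes that varied most among the sorted libraries. Libraries of different groups lay 4.2 to 4.7 apart, against 0.724 to 0.84 among the Upf1-Nos and 0.682 to 0.773 among the Upf1-NosL7 libraries. Picking genes by variance widens the gap between groups, so these distances do not describe all genes. The second Upf1-Nos library stood apart from the first and the third on long mRNAs, as described below.

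Much of the maternal transcriptome was lower in Upf1-Nos embryos. Of 6857 genes tested, 2592 (37.8%) were lower and 279 (4.07%) higher in Upf1-Nos than in Upf1-NosL7 embryos, at an adjusted p below 0.05 by edgeR's quasi-likelihood test with Benjamini-Hochberg adjustment and a change of over 2-fold. A loss of over 4-fold was found for 1657 genes (24.2%) and of over 16-fold for 464 (6.77%). The log2 fold change had a median of -2.48 among the lower genes, 1.29 among the higher genes and -0.52 over all genes tested. Lower genes had a median level of 8.30 CPM in Upf1-Nos and 50.9 CPM in Upf1-NosL7 embryos, whereas higher genes had 121 and 45.0 CPM. As a part of the summed CPM of the genes tested, the lower genes made up 6.84 to 7.75% in Upf1-Nos libraries and 25.6 to 26.9% in Upf1-NosL7 libraries.

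The groups did not overlap for most genes: all 3 Upf1-Nos libraries lay below all 3 Upf1-NosL7 libraries for 4290 genes (62.6%) and above them for 1002 (14.6%). This held for 2589 of the 2592 genes called lower and 275 of the 279 called higher. With TMM factors alone 2017 genes were lower and 833 higher, so that 70.8% of calls were lower in place of 90.3%. Of the genes named below, 13 lost their lower call both with TMM alone (-0.95 to -0.45) and with DESeq2's own size factors (-0.98 to -0.48), namely tud, Fs(2)Ket, Upf1, stg, sna, Moe, Vps25, sc, Fmr1, U4-U6-60K, Orc1, CycE and msk. U4-U6-60K, Orc1, CycE and msk also lost it with factors taken against Upf1-NosL7, from the mode of gene ratios or from ribosomal protein genes (-0.998 to -0.82). Moe, Vps25, sc and Fmr1 lost it with factors from ribosomal protein genes (-0.99 to -0.92). Both groups were also set beside w, the control they share. Lower genes had a median log2 fold change of -2.70 in Upf1-Nos and -0.18 in Upf1-NosL7 embryos relative to w, and higher genes 0.70 and -0.71. The lower genes thus stood near their w level in Upf1-NosL7 embryos. Departures of the higher genes from w were not limited to the fusions, with medians of 0.64 in embryos expressing Upf1 alone and -0.48 in those expressing Nos alone. In bulk samples, fewer embryos or nuclei holding an RNA and less of that RNA in each cannot be told apart.

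**Figure D1:**
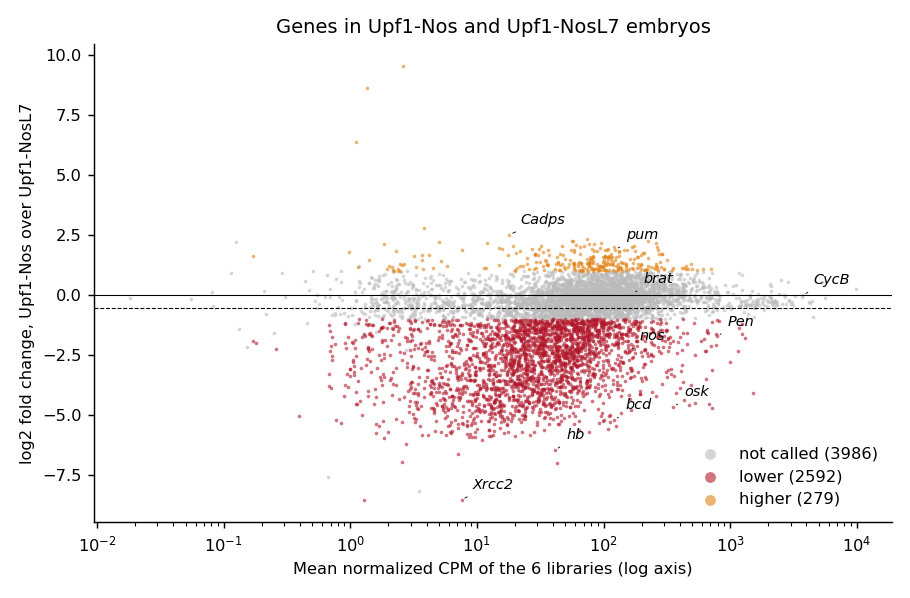
Log2 fold change of Upf1-Nos over Upf1-NosL7 embryos (vertical axis) against the mean normalized CPM of the 6 libraries (log axis), with 1 point for each gene tested. The 2592 genes called lower spread down to below -8, the 279 called higher mostly stay between 1 and 3, and the dashed line marks the median of -0.52.

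Among the mRNAs the study names as Nos targets or possible targets, the anterior determinants showed the deepest loss. hb (FBgn0001180, chromosome arm 3R), which encodes a zinc finger repressor of abdominal fate, had 1.03, 0.872 and 0.888 CPM in Upf1-Nos libraries against 85.6, 71.8 and 89.8 CPM in Upf1-NosL7 libraries. The groups were far apart, at a log2 fold change of -6.46 ± 0.22 (SE, n = 3 each, edgeR adjusted p = 1.06e-11), which is an 88.7-fold lower level. bcd (FBgn0000166, 3R), the homeodomain morphogen of the head and thorax, had 8.54, 4.21 and 6.64 CPM in Upf1-Nos against 227, 244 and 239 CPM in Upf1-NosL7 embryos. Its log2 fold change was -5.20 ± 0.23 (edgeR adjusted p = 4.24e-11). Relative to w, hb stood at -7.04 in Upf1-Nos and -0.58 in Upf1-NosL7 embryos, and bcd at -5.09 and 0.11, so that bcd with the mutant tail was near its w level.

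Pen, an importin alpha that Nos represses in pole cells, fell by less. It had 419, 278 and 402 CPM in Upf1-Nos against 1130, 1126 and 1362 CPM in Upf1-NosL7 libraries, a log2 fold change of -1.72 ± 0.13. CycB (FBgn0000405), the mitotic cyclin whose translation Nos and Pum block in pole cells, showed no detectable difference: it had 4421, 3070 and 3761 CPM in Upf1-Nos and 3914, 3585 and 3730 CPM in Upf1-NosL7 embryos, and the fold change was 0.00 ± 0.17 (edgeR adjusted p = 0.988). The Upf1-Nos values of CycB enclosed those of the other group on both sides. mei-P26, a TRIM-NHL protein of the germline, was at 62.8, 35.6 and 52.6 CPM in Upf1-Nos against 92.0, 76.0 and 94.8 CPM in Upf1-NosL7 embryos. It was short of the 2-fold limit at -0.80 ± 0.29 (edgeR adjusted p = 0.0222). Relative to w, mei-P26 stood at -1.73 in Upf1-Nos and -0.93 in Upf1-NosL7 embryos, so it was below w with both fusions. brat, the NHL protein that joins Nos and Pum on hb mRNA, was at 0.07 ± 0.26 (edgeR adjusted p = 0.823). Of these 7 named targets, with nos itself, 4 were lower and none higher. The study counts hb, bcd, Pen and CycB as bound and regulated by Nos in earlier work. For brat and mei-P26 it states that binding by Nos has not been shown.

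nos reads had 56.3, 53.6 and 49.1 CPM in Upf1-Nos against 231, 277 and 288 CPM in Upf1-NosL7 libraries (log2 fold change -2.32 ± 0.11). Reads of endogenous nos and of the Nos part and 3′ UTR of the transgene cannot be told apart here. Upf1 reads were likewise lower in Upf1-Nos, with 28.6, 15.4 and 23.2 CPM against 52.3, 59.6 and 67.9 CPM in Upf1-NosL7 (-1.42 ± 0.26). Embryos expressing Upf1 alone had a mean of 573 CPM and w embryos 47.0 CPM, so Upf1 reads marked that transgene but marked neither fusion, and they give no check of the fusion labels. Among the partners, bru1, the repressor of oskar (osk) translation, had 64.7, 32.5 and 56.0 CPM in Upf1-Nos against 759, 730 and 755 CPM in Upf1-NosL7 libraries (-3.87 ± 0.20). pum went the other way, with 236, 135 and 214 CPM against 56.0, 48.5 and 52.6 CPM in Upf1-NosL7 (1.90 ± 0.38). Relative to w, pum stood at 0.47 in Upf1-Nos and at -1.42 in Upf1-NosL7 embryos. The mean of pum was 140 CPM in w and 56.5 CPM in embryos expressing Nos alone. Its mRNA is long at 6661 nt, and with library offsets along transcript length, described below, pum was no longer called at 0.60. With those offsets brat (4963 nt) was lower at -1.22 and mei-P26 (8899 nt) at -2.09. Whether the offsets themselves produced these lower calls was not tested.

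**Figure D2:**
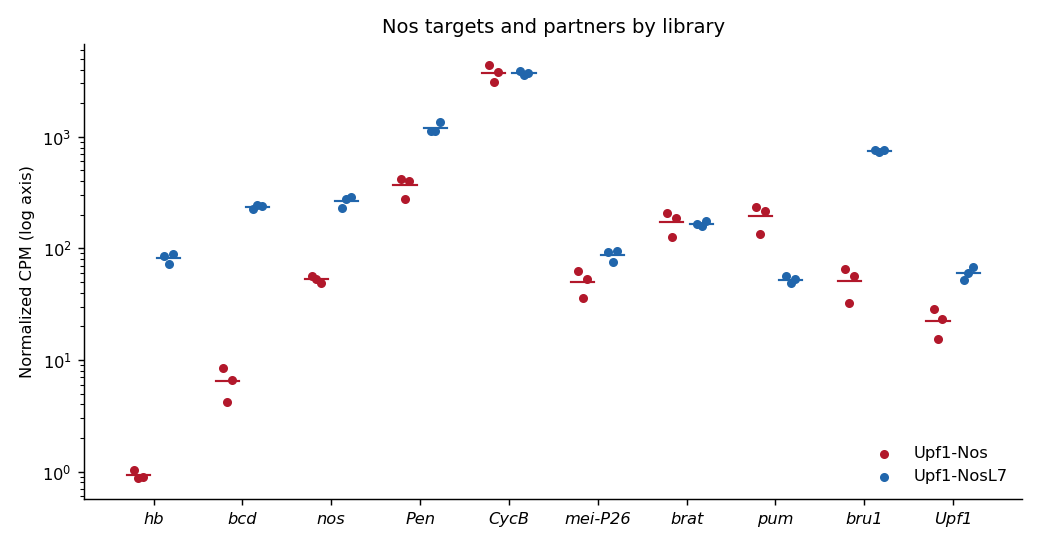
Normalized CPM (log axis) of the 7 named Nos targets and of pum, bru1 and Upf1 in each library, with Upf1-Nos at the left and Upf1-NosL7 at the right of each gene, 1 point for each of 3 libraries and a bar at the mean. hb lies near 1 CPM in Upf1-Nos and between 71.8 and 89.8 CPM in Upf1-NosL7, the CycB and brat points overlap, and pum is the gene with its Upf1-Nos points on top.

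The 12 genes with the deepest loss by fitted log2 fold change were led by Xrcc2, and the other 11 lay between -7.00 and -5.84. Xrcc2, a gene of recombination repair, had 0, 0.0484 and 0.0523 CPM in Upf1-Nos against 16.4, 15.6 and 13.4 CPM in Upf1-NosL7 libraries. These are 2 counts against 771, a ratio of 439-fold lower with an exact 95% interval of 121 to 3631 that covers counting error only, and the fitted value of -8.52 depends on the prior count. CG4476 (FBgn0035969), a gene known by its annotation number, had 0.433, 0.581 and 0.941 CPM in Upf1-Nos against 93.6, 85.3 and 74.5 CPM in Upf1-NosL7 (-7.00 ± 0.23). SA1, a stromalin subunit of the cohesin ring, was at -6.61 ± 0.33, and hb was the fourth of the 12. The others were CG17660, CG13766, sofe, Hr96, a nuclear receptor of lipid metabolism, CG1239, CG7544, Prim2, the large subunit of DNA primase, and Mocs1, an enzyme of molybdenum cofactor synthesis. All 12 kept under 2% of their Upf1-NosL7 level in Upf1-Nos embryos, and without the third Upf1-Nos library SA1 was at -7.40.

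The 12 genes with the largest fold higher in Upf1-Nos than in Upf1-NosL7 embryos lay between 2.52 and 2.06. Relative to w, all 12 were below it in Upf1-NosL7 embryos, between -2.40 and -0.96. In Upf1-Nos embryos they lay between 0.12 and 1.29 relative to w. Cadps, a factor of dense-core vesicle release on chromosome 4, had 33.9, 29.0 and 29.5 CPM in Upf1-Nos against 4.65, 5.55 and 5.90 CPM in Upf1-NosL7 libraries (2.52 ± 0.19). It stood near w in Upf1-Nos (0.12) and at -2.40 in Upf1-NosL7 embryos, and embryos expressing Nos alone were low as well, with a mean of 8.79 CPM against 28.2 CPM in w. nej, the CBP histone acetyltransferase, had 131, 50.7 and 104 CPM in Upf1-Nos against 18.9, 21.6 and 19.3 CPM in Upf1-NosL7 embryos (2.25 ± 0.52). The rest were CG8677, Trf2, a TBP-related factor, spen, an RNA-binding corepressor, Not1, the scaffold of the CCR4-NOT deadenylase, the spectraplakin shot, Helz, l(3)psg2, sov, the Dot1 histone methyltransferase gpp and the teneurin Ten-m. The transcripts of these 12 genes were 5413 to 18859 nt long, and in all 12 genes the second Upf1-Nos library was the lowest of the 3.

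The 3 called genes without a count in one group, picked out after their values were seen, have a fold that is a bound against a floor of 3 counts over the group. Cyp12c1, a mitochondrial cytochrome P450, was at least 46.0-fold higher in Upf1-Nos, and CG46312 at least 88.4-fold higher. Hsp70Aa was at least 50.5-fold lower in Upf1-Nos, but it is 1 of several near-identical Hsp70 copies among which reads can be split.

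The higher genes were long. Their most abundant isoform had a median length of 6047.5 nt (n = 278), against 1862 nt for lower genes (n = 2566), 1791 nt for genes not called and 1879 nt for all. In 6 length bins, the median log2 fold change was -0.55 for transcripts up to 1000 nt, -0.67, -0.54 and -0.46 in the next 3 bins, 0.04 at 4000 to 6000 nt and 0.75 above 6000 nt. The share of higher calls went along with it, being 0.167% in the shortest bin and 42.8% in the longest. Set beside w, the longest bin was at -0.17 in Upf1-Nos and -0.89 in Upf1-NosL7 embryos, while the shortest was at -0.33 and 0.18. The longest bin was at 0.64 in embryos expressing Upf1 alone and at -0.57 in those expressing Nos alone. The 3 Upf1-Nos libraries did not move together: above 6000 nt their medians over the Upf1-NosL7 mean were 1.00, 0.16 and 0.80, so the second library was the low one.

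To see which calls follow length, each library was rescaled within length bins to the mode of its gene ratios to w, an alternative chosen after seeing the data. With these offsets 2921 genes (42.6%) were lower and 18 (0.263%) higher. Of the 2592 lower genes, 2509 were still lower, and 412 genes not called before became lower. Of the 279 higher genes, 15 were still called and 264 were not. Among the 12 genes with the largest fold higher, Cadps (1.27) and CG8677 (1.01) were still higher, and the other 10 lay between 0.72 and 0.97, none of them called. The offsets did not level the bins. With them the median log2 fold change was -0.28 up to 1000 nt, -1.15 at 3000 to 4000 nt and -0.53 above 6000 nt. Lower calls went from 31.7 to 26.8% in the shortest bin and from 42.1 to 53.1% at 3000 to 4000 nt. Whether the offsets produced the new lower calls was not tested. Whether the length trend seen without offsets comes from the RNA samples or from the embryos was not tested either.

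**Figure D3:**
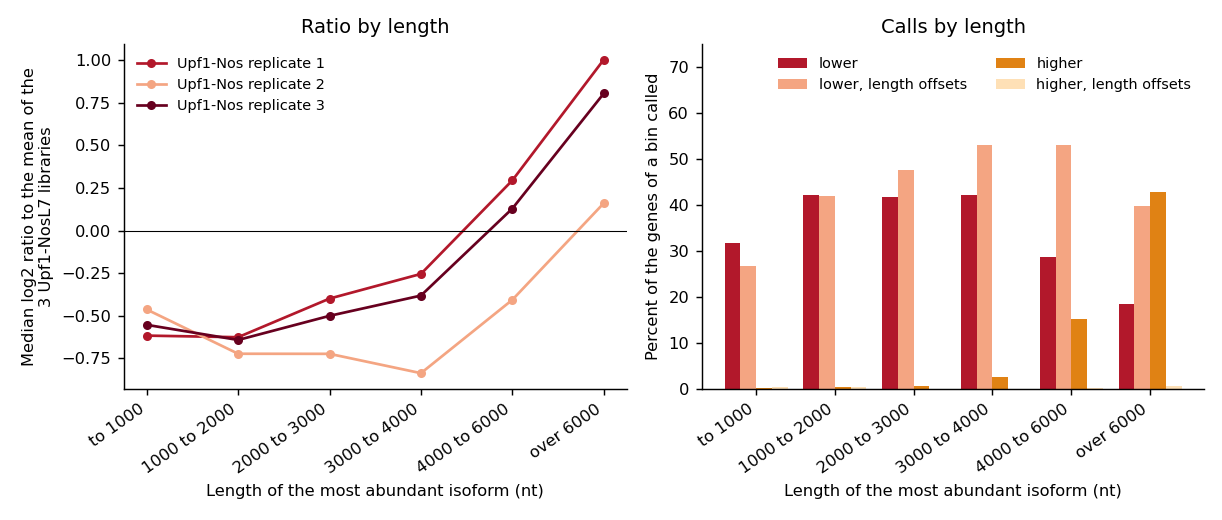
Left, median log2 ratio of each Upf1-Nos library to the mean of the Upf1-NosL7 libraries in 6 bins of transcript length (nt), where the second library stays below the first and the third from 1000 nt upward. Right, percent of the genes of a bin called lower or higher, with and without offsets along length, where the 42.8% of higher calls above 6000 nt drop to 0.602%.

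Genes of the germ plasm and of bcd mRNA localization were lower more often than all genes. In the germ plasm list 8 of 11 genes were lower and none higher, beside 37.8% and 4.07% of all genes. osk, which assembles germ plasm, had 34.5, 16.7 and 30.6 CPM in Upf1-Nos against 675, 655 and 725 CPM in Upf1-NosL7 libraries (-4.65 ± 0.21). The RNA helicase gene vas was at -3.75, pgc, which blocks transcription in pole cells, at -3.70, orb, a CPEB protein, at -3.51, gcl at -1.86 and tud, a Tudor domain scaffold, at -1.47. Of the 6 genes of bcd mRNA localization, exu (-3.35), swa (-1.57) and the ESCRT-II genes Vps36 (-3.24) and Vps25 (-1.16) were lower. stau, which encodes a double-stranded RNA-binding protein, was higher at 1.31 and not called with length offsets (0.03). Vps25 likewise lost its call with those offsets (-0.82).

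The maternal Toll pathway had 3 lower and 1 higher of 10 genes tested (30% lower, against 37.8% of all genes). dl, the NF-kappaB factor at its end, had 6.87, 3.83 and 7.05 CPM in Upf1-Nos against 74.7, 85.5 and 93.4 CPM in Upf1-NosL7 embryos (-3.84 ± 0.20). The ligand spz (-2.16) and the protease gd (-1.78) were lower too, and the receptor Tl was higher at 1.29, or 0.01 and not called with length offsets. In the terminal system 5 of 13 genes (38.5%) were lower: the MEK kinase Dsor1 (-3.48), the ligand trk (-3.46), the eggshell-borne fs(1)N (-3.14) and fs(1)M3 (-3.10), and the exchange factor Sos (-2.82). csw, a phosphatase of that pathway, passed the limit narrowly at 1.01. It lost its call without the first (0.85) or the third Upf1-Nos library, the second or the third Upf1-NosL7 library or the first or the second w library, with no filter on low counts (0.94) and with length offsets (0.17).

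Translational repressors numbered 8 lower (42.1%, against 37.8% of all genes) and 3 higher of 19. BicC, a KH domain protein that recruits deadenylases, had 8.38, 3.73 and 8.26 CPM in Upf1-Nos against 194, 214 and 242 CPM in Upf1-NosL7 embryos (-5.0 ± 0.28). The cap-binding repressor eIF4EHP, which acts with Nos and Pum partners on hb and with Bcd on caudal, was at -1.87. Fmr1 was at -1.11, and at -0.89 and not called without the second Upf1-Nos library. The 3 higher members were pum, stau and glo. glo was at 1.04, and not called without the first Upf1-Nos (0.89), the third Upf1-NosL7 or the first w library or with no filter on low counts. With length offsets none of the 3 was called.

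In the deadenylation and decapping machinery 5 of 21 genes were lower (23.8%, against 37.8% of all genes) and 2 higher. CCR4-NOT was split, with Not11 (-4.72), Not10 (-1.91) and the deadenylase twin (-1.93) lower and the scaffold Not1 higher. Not11 had 0.27, 0.242 and 0.418 CPM in Upf1-Nos against 8.12, 8.02 and 8.79 CPM in Upf1-NosL7 libraries, whereas Not1 had 542, 264 and 472 CPM against 100.04, 83.4 and 96.7 CPM (2.19 ± 0.47). The decapping cofactors LSm1 (-3.71) and LSm7 (-2.41) were lower. Patr-1, a partner of that ring, was higher at 1.06, but not called without the first Upf1-Nos (0.91) or the first w library or with no filter on low counts. Of 10 genes of nonsense-mediated decay, btz (-2.21) and Upf1 were lower (20%) and the SMG1 kinase gene nonC was higher (1.13). nonC had an edgeR adjusted p of 0.0444, which rose past 0.05 without either the first or the third Upf1-Nos library, any 1 Upf1-NosL7 library or the second w library.

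Genes of DNA replication were mostly lower, with 28 of 39 lower (71.8%, against 37.8% of all genes). Their median log2 fold change was -1.82, against -0.52 for all genes. All 6 genes of the origin recognition complex were lower, as were 4 of the 6 subunits of the replicative helicase. Prim2 had 0.595, 0.92 and 0.47 CPM in Upf1-Nos against 39.3, 38.9 and 39.7 CPM in Upf1-NosL7 embryos (-5.86 ± 0.21). The polymerase delta catalytic subunit PolD1 was at -5.73, the helicase cofactor Cdc45 at -5.20, Orc2 at -5.01 and the ribonucleotide reductase subunit RnrS at -4.80. Orc1 passed the limit narrowly at -1.06. It did not without the second Upf1-Nos library (-0.91) or with any of the other scaling factors named above (-0.97 to -0.50). Recombination repair had 12 of 21 lower (57.1%), among them nbs (-3.99), Brca2 (-3.79) and Ku80 (-2.87). The replication checkpoint had 5 of 9 lower (55.6%), with the ATR kinase mei-41 at -3.40, mus101 at -3.71 and the checkpoint kinases lok at -2.15 and grp at -1.75. None of these 3 lists held a higher gene, but only 4.07% of all genes were higher, so lists this short say little on that.

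Cell cycle genes were lower in 10 of 26 cases and higher in none, near the share of all genes. The members that were lower included cort, a meiotic activator of the anaphase promoting complex (-4.64), Myt1, an inhibitory kinase of Cdk1 (-4.21), and png and gnu, subunits of the kinase that starts translation at egg activation (-3.49 and -3.39). gnu had 70.5, 51.8 and 67.3 CPM in Upf1-Nos against 667, 665 and 655 CPM in Upf1-NosL7 libraries. Mps1 (-3.11), Cdk2 (-2.68), trbl (-2.37), fzr (-2.19) and the Cdc25 phosphatase stg (-1.37) followed. CycE was at -1.01, and not called without the second Upf1-Nos (-0.84), the first or the third Upf1-NosL7 or the third w library. The maternal alphaTub67C (-4.15) and gammaTub37C (-3.82) were the 2 lower of 8 tubulin and actin genes tested (25%, against 37.8% of all genes).

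Genes of protein folding and tRNA charging were mostly lower. All 8 subunits of the CCT chaperonin, the folding chamber of tubulin and actin, were lower, from CCT2 (-3.49 ± 0.14) to CCT1 (-1.72 ± 0.10). CCT2 had 37.2, 28.9 and 39.2 CPM in Upf1-Nos against 381, 396 and 408 CPM in Upf1-NosL7 embryos. Of 12 heat shock chaperones 8 were lower (66.7%, against 37.8% of all genes). Hsp26, a small heat shock protein loaded into the egg, had 58.8, 46.6 and 53.6 CPM in Upf1-Nos against 1348, 1510 and 1270 CPM in Upf1-NosL7 libraries (-4.70 ± 0.19). Hsp83, the fly Hsp90, had 215, 99.9 and 195 CPM against 3267, 2536 and 2795 CPM (-4.07 ± 0.23), and its cochaperone Stip1 was lower too, as was the mitochondrial Hsp60A at -4.12.

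Aminoacyl-tRNA synthetases were lower in 24 of 34 cases (70.6%, against 37.8% of all genes, median -2.43). The lower members were 15 of 20 cytosolic and 9 of 14 mitochondrial enzymes. No synthetase was higher, and only 4.07% of all genes were. AlaRS had 3.35, 2.47 and 3.66 CPM in Upf1-Nos against 98.9, 107 and 105 CPM in Upf1-NosL7 embryos (-5.04 ± 0.18). MetRS was at -4.02 and the mitochondrial IleRS-m at -5.17. Mitochondrial ribosomal proteins were lower in 27 of 73 cases, near the share of all genes, with mRpL46 the lowest at -5.07. Respiratory chain subunits were lower in 14 of 59 (23.7%, against 37.8% of all genes), with UQCR-C2 at -4.45 and ATPsynbeta at -1.77.

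The proteasome divided along its structure, a split drawn after its values were seen. Of 18 regulatory particle genes 14 were lower (median -1.64), and of 14 core particle genes none was called (median -0.18, from -0.66 to 0.00). Of all genes, 37.8% were lower. Rpn11, the deubiquitinase of the lid, had 10.4, 6.83 and 10.9 CPM in Upf1-Nos against 171, 176 and 176 CPM in Upf1-NosL7 embryos (-4.22 ± 0.17), and Rpn7 and Rpn1 were at -3.93 and -3.25. Of 87 cytosolic ribosomal protein genes tested none was called in either direction, at a median of -0.35 (from -0.77 to 0.70). Some of these genes are among the 20 that set the scaling, which holds them near 0.

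The piRNA pathway, which silences transposons in the germline, had 10 of 31 genes lower (32.3%, against 37.8% of all genes) and none higher. Nbr, which trims piRNA ends, was the lowest (-5.38 ± 0.17), followed by cuff (-5.15), shu (-4.20) and del (-3.79), while armi (-2.02) and piwi (-1.60) fell less. Among nuclear transport genes the importins and the exportin Cse1 (-2.75), Pen, Fs(2)Ket (-1.49) and msk (-1.0) were the 4 lower of 15 (26.7%). Nup153 (2.06), Nup358 (1.72) and Tnpo (1.03) were the 3 higher. msk was not called without the second Upf1-Nos (-0.82), the first or the third Upf1-NosL7 or the third w library. Tnpo was not called without the first Upf1-Nos (0.84), the second Upf1-NosL7 or the first or the second w library or with no filter. Of 27 spliceosome genes, hoip (-3.59) and U4-U6-60K (-1.08) were lower (7.41%) and Sf3b3 (1.28), Brr2 (1.18) and Sf3b1 (1.03) higher. U4-U6-60K was not called without the second Upf1-Nos library (-0.98). Sf3b1 was not called without the first (0.84) or the third Upf1-Nos, the second Upf1-NosL7 or the first or the second w library or with no filter.

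Large cytoskeletal genes made up most of the remaining higher members. In the spectrin membrane skeleton alpha-Spec (1.87), beta-Spec (2.03) and shot (2.19) were higher and Moe (-1.15) lower among 8 tested. Relative to w, shot stood at 0.52 in Upf1-Nos and at -1.67 in Upf1-NosL7 embryos. The study reports mRNAs of spectrins, the spectraplakin and related cytoskeletal proteins as enriched in the set depleted by Upf1-NosL7. In the cellularization list zip (1.52), the myosin II heavy chain, was higher and RhoGEF2 (-2.21) lower among 12. Of all genes, 37.8% were lower and 4.07% higher. zld, the pioneer factor of zygotic genome activation, was the 1 called of 4 such factors, with 192, 104 and 166 CPM in Upf1-Nos against 53.0, 46.1 and 50.5 CPM in Upf1-NosL7 libraries (1.63 ± 0.37). The median spectrin list transcript was 6785 nt long. With length offsets no member of any of the 30 lists was called higher. Uhg4 (-2.24) was the 1 lower of 6 snoRNA host genes, RNAs known as substrates of nonsense-mediated decay.

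**Figure D4:**
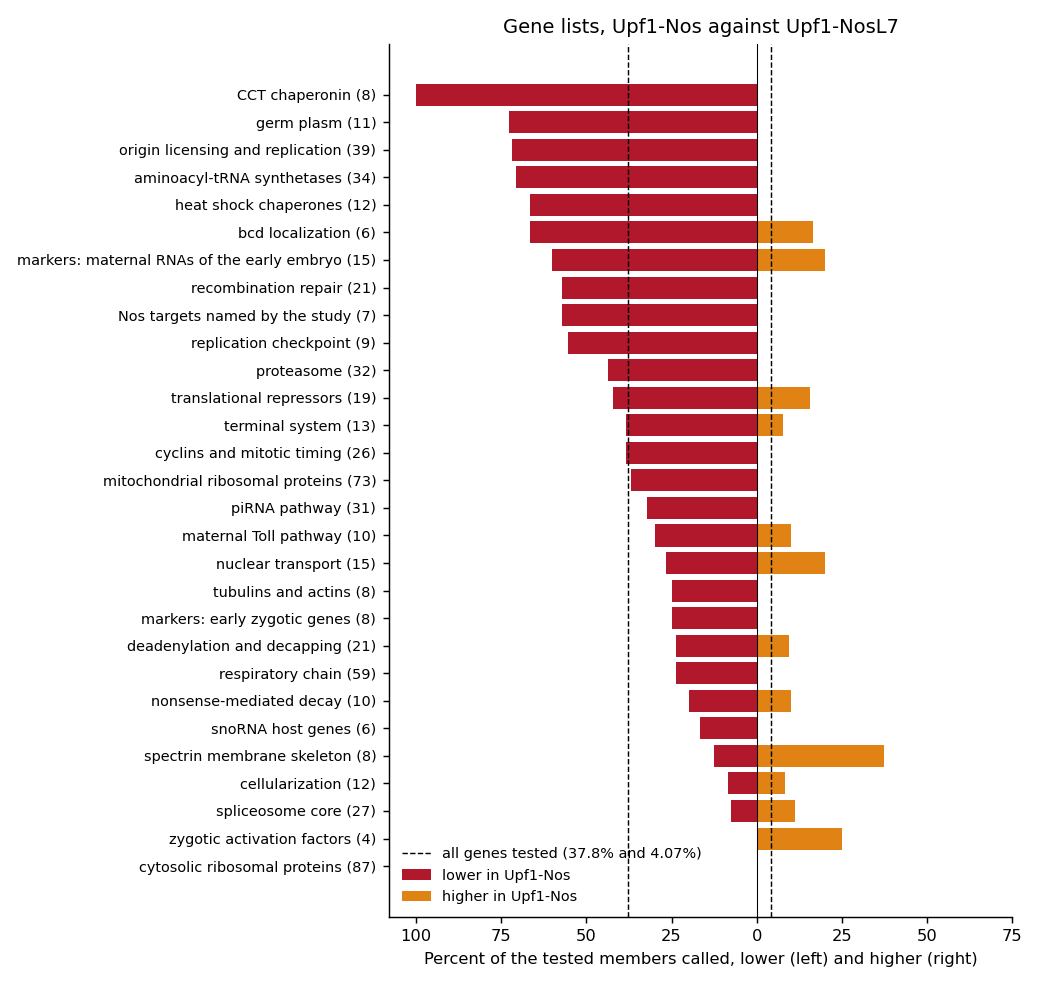
Percent of the tested members of each gene list called lower (left, red) and higher (right, orange) in Upf1-Nos against Upf1-NosL7 embryos, with the number tested in parentheses and dashed lines at the 37.8% and 4.07% of all genes. CCT subunits are at 100%, cytosolic ribosomal proteins have no bar, and the spectrin list has the longest orange bar among lists of 8 or more.

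Marker lists were read for stage and tissue. Summed early zygotic markers were at 30.4 to 34.7 CPM in Upf1-Nos and 36.4 to 41.6 CPM in Upf1-NosL7 libraries (22.4 to 53.5 CPM in w), with sna (-1.18) and sc (-1.15) the 2 called of 8 tested of 20. sc was not called without the third Upf1-NosL7 library (-0.97). Follicle cell and eggshell markers summed to 0.108 to 0.366 CPM in Upf1-Nos and 0.0617 to 0.389 CPM in Upf1-NosL7, with 11 and 12 of 15 genes without a count. Maternal markers summed to 2954 to 4493 CPM in Upf1-Nos and 4967 to 5260 CPM in Upf1-NosL7 embryos, and 9 of 15 were lower and 3 higher. Maternal RNA therefore marked both groups, and the part of embryo state in the gene results was not tested.

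Lower calls were spread over levels and chromosomes. In 5 bins of equal size by Upf1-NosL7 level, 47.4% of genes were lower in the lowest bin and 25.4% in the highest, and on the 5 large chromosome arms 36.6 to 40.6% were lower. Chromosome 4 had 9 of 60 genes lower and 9 higher (15% each), and its median transcript was 3009 nt. The 3′ UTR of the most abundant isoform had a median of 229 nt in lower genes, 846 nt in higher genes and 248 nt in all genes tested.

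Single isoforms were tested in the same way. Of 12840 isoforms tested 4162 (32.4%) were lower and 486 (3.79%) higher. The higher count dropped to 283 without the first Upf1-Nos library. Of 2566 lower genes with tested isoforms, 2542 had at least 1 lower isoform, and in 2079 every tested isoform was lower. Within genes, the use of isoforms differed in 190 of 3249 genes (5.85%) by edgeR's diffSpliceDGE at a Simes adjusted p below 0.05, a test in which the scaling of a library cancels. In simulated data this test also called 22 of 2870 unchanged genes.

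Among isoforms with a mean of at least 5 CPM in Upf1-NosL7 embryos, the 8 genes with the largest difference between isoforms were CG33096, CkIIbeta, CG12025, da, lmgB, SERCA, oaf and Rab6, and each had an isoform listed at 0 in all 3 Upf1-Nos libraries. CkIIbeta, the regulatory subunit of casein kinase 2, had 7 tested isoforms, 6 of them lower. FBtr0073558, with a 3′ UTR of 2315 nt, made up 69.5, 82.2 and 73.2% of its isoform counts in Upf1-Nos against 38, 37.3 and 35.9% in Upf1-NosL7 libraries. Of its other isoforms 4 share a 3′ UTR of 278 nt, and FBtr0073560 among them was at 0 in Upf1-Nos and at 71.7, 53.1 and 70.1 CPM in Upf1-NosL7 embryos. FBtr0333204, with a 3′ UTR of 896 nt, went the other way without being called, at 13.9, 6.40 and 10.9 CPM in Upf1-Nos against 0, 0.739 and 0 CPM in Upf1-NosL7 libraries (edgeR adjusted p = 0.111). da, a bHLH factor, lost FBtr0080008 in Upf1-Nos (83.3, 97.5 and 85.0 CPM in Upf1-NosL7), whose 3′ UTR of 593 nt is the shorter, while FBtr0332195 with 1034 nt had 21.3, 10.3 and 17.9 CPM in Upf1-Nos against 106, 90.0 and 117 CPM. Among genes called in usage the isoform that fell most had the shorter 3′ UTR in 42.1% of 171 genes and the longer in 26.9%. Of the 2401 genes tested the shares were 26.6% and 25.9%. A trend along transcript length does not cancel in the usage test, and the longest transcripts stood higher in Upf1-Nos, as described above. The part of transcript length in this difference of 3′ UTRs was not tested. An exact 0 can be an estimate of the quantifier where isoforms share most of their sequence.

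The same genes were read in nos- embryos, whose libraries share no sample with the fusion libraries. At 2 to 3 h, when maternal mRNAs are being cleared, 1570 of 8445 genes (18.6%) were higher and 743 (8.8%) lower in nos- than in w embryos, at an edgeR adjusted p below 0.05 and a log2 fold change beyond 0.5. Of the genes lower in Upf1-Nos than in Upf1-NosL7, 1106 of 2582 (42.8%) were higher in nos-, against 243 of 3946 genes not called (6.16%) and 6 of 275 higher genes (2.18%). Seen from the other side, 81.6% of the 1355 genes higher in nos- and tested in both fits were lower in Upf1-Nos. The median log2 fold change of nos- over w at 2 to 3 h was 0.43 for lower genes, -0.16 for higher genes and -0.14 for genes not called. At 0 to 1 h these medians were 0.03, 0.06 and 0.10, close to each other. Lower genes were also those that declined in w, with a median of -1.71 for 2 to 3 h over 0 to 1 h, against 0.49 for higher genes and 0.44 for genes not called, and the part of that decline in the nos- result was not tested.

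Single genes showed both outcomes. osk had 139.6, 146 and 84.0 CPM in nos- against 34.9, 19.8 and 11.8 CPM in w embryos at 2 to 3 h (log2 fold change 2.48 ± 0.31). bru1 had 296, 260 and 140.1 CPM in nos- against 93.1, 50.03 and 36.1 CPM in w embryos (1.96 ± 0.32), and CG4476 was at 3.40 and Hsp26 at 1.98. For osk and bru1 all 3 nos- libraries lay above all 3 w libraries, although the third nos- library was the lowest. hb and bcd, the deepest losses among the named targets, were not called in nos- (0.14 and 0.18), and hb is known to be transcribed from the zygotic genome by that stage. In the lists, 8 of 12 heat shock chaperones, 7 of 11 germ plasm genes, 5 of 8 CCT subunits and 17 of 34 synthetases were higher in nos-, beside 19.9% of the 6803 genes tested in both fits. The counts were 7 of 73 for mitochondrial ribosomal proteins, 1 of 59 for respiratory chain subunits and 1 of 86 for cytosolic ribosomal proteins. They were 0 of 21 for deadenylation and decapping and 1 of the 7 named Nos targets. nos itself is among those 7 and among the 11 germ plasm genes. As the gene mutated in nos- (log2 fold change -5.09), it could not have been higher there.

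**Figure D5:**
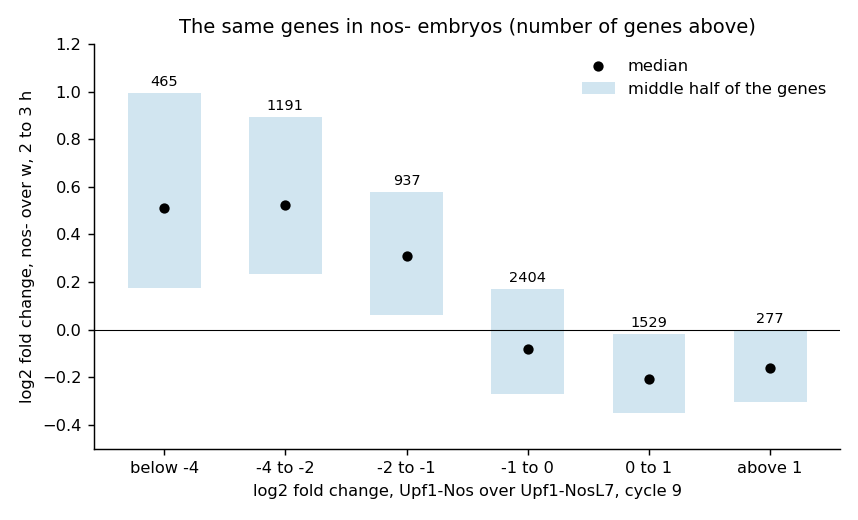
Median (point) and middle range between quartiles (bar) of the log2 fold change of nos- over w embryos at 2 to 3 h, for genes binned by their log2 fold change of Upf1-Nos over Upf1-NosL7 embryos at cycle 9, with the number of genes above each bar. Medians are 0.51 and 0.52 in the lowest bins and -0.21 and -0.16 in the highest.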

How the data were processed

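RNA was measured as poly(A) sequencing in 15 sorted and 12 unsorted libraries. The authors aligned reads with STAR (2.5.3a) to BDGP6 and deposited expected counts per gene and isoform from RSEM (1.3.0), which were rounded here. TPM values deposited by the authors beside them were read and are not printed. The filter (filterByExpr, count and total minimum 30) and the 20-gene factors for Upf1-Nos (21 isoforms) follow the study's methods. TMM for the other groups, the quasi-likelihood test with Benjamini-Hochberg adjustment and 1 fit over all 15 sorted libraries (R 4.3.3, edgeR 4.0.16) were chosen here. Genes called in Upf1 alone were kept, and leaving them out was an alternative. Genotypes were grouped by label. Libraries held 14022879 to 22002028 counts, and the replicates of Upf1-Nos and of Upf1-NosL7 differed by more than sampling noise (chi-square per degree of freedom 7.02 to 49.4), so precision rests on the spread between replicates. Unsorted libraries were fitted separately. There, same-numbered nos- and w libraries deviated together (r = 0.482, 0.211 and 0.117), so their numbers may pair them. The values given are nevertheless from the fit without the block, as designed, which does not use such pairs. With the replicate block 1639 genes were higher and 901 lower. Of the genes lower in Upf1-Nos, 1102 of 2582 (42.7%) were then higher in nos-. Of the 1374 genes higher in nos- with the block, 80.2% were lower in Upf1-Nos.

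The genes named were a fixed set of 10 (hb, bcd, Pen, CycB, nos, Upf1, brat, mei-P26, pum and bru1), the 12 with the largest fold in each direction among called genes with no overlap and at least 10 CPM, list members that were called, were extremes or whose role is given, and 8 genes by isoform usage (isoforms of at least 5 CPM on average in Upf1-NosL7). Members and lists were chosen with earlier results of these data known. Alternatives covered scaling, filters, thresholds, DESeq2 1.42.0, the block and leaving out libraries. On simulated data with 200 of 6760 genes changed, 50 of 50 genes at 4-fold lower and 47 of 50 at 0.4 times were recovered. There, 0 unchanged genes were called. As many genes were raised as lowered in that simulation, whereas 90.3% of the calls in the data were lower. It therefore cannot show how the calling performs with so many genes changed and at such a skew. Isoform lengths matched the annotation for 6793 of 6857 genes.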

Additional observations from a re-analysis of the deposited data

How the results depend on the processing

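The number of lower genes kept within 1.5 times of 2592 under every alternative except the 4-fold limit, which gave 1657. The number of higher genes (279) was 833 with TMM alone, 783 with DESeq2's own size factors, 26 at 4-fold and 18 with offsets along transcript length. The median log2 fold change of all genes (-0.52) was 0.061 with TMM alone, 0.022 with DESeq2's own size factors, -0.43 with factors taken against Upf1-NosL7, -0.43 with the mode of gene ratios, -0.34 with ribosomal protein genes, -0.40 with no filter and -0.67 with length offsets. Isoforms higher (486) were 1194 with TMM alone. Lower genes had a median 3′ UTR 31 nt shorter than other genes (-31 nt), and taking each gene's longest UTR made this -58 nt.

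Leaving out 1 library at a time gave 2534 to 2671 lower and 196 to 381 higher genes, 3938 to 4282 lower and 283 to 640 higher isoforms, 137 to 185 genes of isoform usage, a median of -0.58 to -0.50, and, in nos-, 1379 to 1778 higher and 471 to 824 lower genes. The 471 came without the first nos- library at 2 to 3 h.

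Same-numbered Upf1-Nos and Upf1-NosL7 libraries did not deviate together (r = -0.0682, 0.218 and 0.135), so their numbers do not pair them, though 2 of 3 Upf1-Nos libraries correlated best with their own number. A replicate block gave 2593 lower and 277 higher genes and 4129 lower and 474 higher isoforms. In the nos- fit the block moved no count by over 1.5 times.

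Of 3324 values of 133 named genes, 3158 stayed on their side of the limits, 152 lost a call, 1 gained one and 13 changed sign, in 5 genes. CycB (0.00) was -0.071 with no filter, -0.0045 with the block, -0.34 with length offsets, between -0.14 (without the first) and 0.11 (without the second) when a Upf1-Nos library was left out, -0.02 without the second Upf1-NosL7 library, and -0.06 and -0.03 without the first and second w libraries. brat (0.07) was -0.0068 with no filter, -0.087 without the first and 0.24 without the second Upf1-Nos library, and -1.22 with length offsets. With length offsets nonC was -0.20, Brr2 -0.11 and Tnpo -0.25. The cause was not tested. Of 1500 list counts 136 moved by over 1.5 times. Depth limits genes under about 1 CPM in Upf1-Nos, where a level rests on few counts.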
